A study of Homo sapiens with 18 samples.

Results

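Transcripts of 10 surface proteins of B cell activation and costimulation were followed after drug treatment of JEKO1 and MAVER, established lines of mantle cell lymphoma. The members were chosen by name, with earlier results of these data known: CD83, ICAM1, CD40, CD80, CD86, CD69, CD70, CD58, SLAMF1 and IL21R. All 10 were found among the 25369 genes that each deposited table lists. RNA sequencing covered 18 libraries in 6 groups of 3, all taken at 6 h. JEKO1 received DMSO (the solvent) or IB. MAVER received IB, KPT or PU beside its own DMSO group. IB was read as ibrutinib at 0.4 µM, a covalent blocker of BTK, a kinase of B cell receptor signalling. KPT was read as selinexor at 1.5 µM, an inhibitor of the nuclear export receptor XPO1. What PU stands for, and its dose, was not found in the labels, and it is written as labelled. Each line stands for 1 tumour. The study calls the 3 libraries of a group biological triplicates without saying how cultures were separated. A p-value thus reflects spread among libraries, which may be technical, and the test also draws on the spread of other genes.

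A B cell that has bound antigen changes its surface so that T cells can recognise and help it. CD80 and CD86 are the B7 ligands of CD28 and CTLA4, CD40 receives the T cell signal CD40 ligand, and CD70 is the ligand of CD27. ICAM1 and CD58 are adhesion ligands, of the integrin LFA-1 and of CD2 respectively, and SLAMF1 is a receptor that binds itself on a neighbouring cell. CD69 is an early activation marker that holds lymphocytes in tissue by opposing the egress receptor S1PR1, CD83 stabilises MHC class II and CD86 at the surface, and IL21R receives the T cell cytokine IL-21. Antigen receptor signalling through BTK and the NF-kB factors is a known route to transcription of several of these genes.

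Recovered depth ranged from 5374226 reads (KPT replicate A) to 17040599 (PU replicate B). RNA45S5, the ribosomal RNA precursor, stood apart in 3 libraries, at 65331 normalized counts in JEKO1 DMSO replicate C, 53819 in KPT replicate A and 66933 in KPT replicate C, against at most 32274 in the others. In the whole tables, 1415 genes were called with IB in both lines and 1260 of them (89%) moved opposite ways, so an exchange of the JEKO1 labels and an opposite response of the lines cannot be told apart. Each JEKO1 direction below holds for the labels as given. The labelled cell type fitted its markers: all 7 B cell markers and all 3 mantle cell lymphoma markers averaged at least 10 normalized counts in every group, with CCND1 the highest of the latter. Summed natural killer markers were at most 2.35, summed T cell markers at most 24.1 and summed myeloid markers at most 44.9 in any library. Other lists were not low. Plasma cell markers summed to 1571 to 4300. Of the fibroblast and endothelium list, PECAM1 averaged 119 to 568 over the groups. COL1A1 averaged 61.1 with DMSO and 680 with PU in MAVER. CD83, CD80 and CD86 also mark dendritic cells, whose 4 listed markers summed in JEKO1 to 4.47 to 5.72 with DMSO and 9.17 to 14.3 with IB, while CLEC9A and LAMP3 were at 0 in both groups. In MAVER the same sum was 8.57 to 10.9 with DMSO. It was lower in every drug group, at 1.06 to 5.59 with IB, 1.19 to 2.49 with KPT and 2.43 to 6.52 with PU. The fall was that of CD1C, which averaged 9.58 with DMSO and 1.44, 1.41 and 2.69 with IB, KPT and PU. FLT3 went the other way, from 0 with DMSO to 1.42, 0.42 and 1.19. All of these are a few counts, and the part of such cells in the results was not tested. In bulk RNA, fewer cells with a transcript and less of it per cell cannot be told apart.

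In JEKO1, transcripts of every member that could be tested were higher in the libraries labelled IB. Tests used limma on log2(normalized count + 1), kept genes averaging 10 or more, adjusted p over all genes tested (Benjamini-Hochberg) and called genes at an adjusted p under 0.05. Of 9 members tested, 9 rose and 0 fell, where 21.9% of the 11609 genes tested rose and 20.2% fell. The members were chosen with earlier results of these data known, so this count describes them and is no test of the set. CD80 passed the filter only through its IB libraries. The other 8 averaged at least 10 in both groups, and their log2 fold changes ran from 0.89 to 2.76 with a median of 1.90, beside a median of -0.01 over the 11342 genes with such levels.

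CD83 and ICAM1 had the steepest well-measured rises. CD83 stood at 165, 150 and 175 normalized counts in DMSO replicates A, B and C and at 1127, 1119 and 989 in the IB replicates. The lowest IB library was thus far above the highest DMSO library, and the log2 fold change was 2.72 ± 0.08 (SE, n = 3; limma adjusted p = 1.45e-15). ICAM1 read 96.6, 83.8 and 74.4 with DMSO and 569, 600 and 562 with IB, again with no overlap (2.76 ± 0.10, adjusted p = 2.73e-14). Both rises were of like size without DMSO replicate C, the library rich in RNA45S5 (2.77 for CD83 and 2.67 for ICAM1).

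The reference promoters of CD83, ICAM1 and CD86 are shown because these 3 members rose by over 1.5 on the log2 scale in JEKO1 and hold matches to NF-kB motifs. RefSeq entries (GRCh38.p14) were matched for 7 of the 10 members, CD40, CD69 and CD70 being the ones without an entry, and the 250 bases before each transcription start were searched on both strands. The build differs from the hg19 named for the deposited data, so only the reference sequence is used. Each line is 5′ to 3′ on the gene's strand (+ in all 3), and capitals mark matches to the NF-kB consensus decamer or to its core GGAANTTCC, with overlapping matches joined.
CD83, second start, chr6:14117522-14117771 (+): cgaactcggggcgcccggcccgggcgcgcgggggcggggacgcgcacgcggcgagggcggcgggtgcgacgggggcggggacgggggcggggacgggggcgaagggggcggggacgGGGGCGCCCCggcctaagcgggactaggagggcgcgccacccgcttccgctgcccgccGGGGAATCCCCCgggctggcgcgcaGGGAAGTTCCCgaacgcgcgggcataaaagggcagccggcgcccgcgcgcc
ICAM1, chr19:10270870-10271119 (+): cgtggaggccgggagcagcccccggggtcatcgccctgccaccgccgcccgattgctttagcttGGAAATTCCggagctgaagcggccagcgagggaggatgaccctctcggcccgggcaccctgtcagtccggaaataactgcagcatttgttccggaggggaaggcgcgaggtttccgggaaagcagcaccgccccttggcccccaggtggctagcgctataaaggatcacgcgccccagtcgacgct
CD86, second start, chr3:122077534-122077783 (+): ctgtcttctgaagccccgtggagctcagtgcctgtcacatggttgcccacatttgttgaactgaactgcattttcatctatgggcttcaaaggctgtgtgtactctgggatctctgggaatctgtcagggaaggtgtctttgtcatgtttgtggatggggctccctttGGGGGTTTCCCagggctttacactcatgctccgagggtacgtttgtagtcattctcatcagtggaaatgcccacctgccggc

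The CD83 promoter held 3 capital stretches, from 134 to 125, 76 to 65 and 51 to 41 bases before the start, the last of which also contains the core. ICAM1 held 1 core match, from 186 to 178 bases before the start, and CD86 held 1 consensus stretch, from 82 to 72. Of 35116 promoter windows of the same length, 9.96% held the consensus and 0.826% the core. The EGR motif GCGNGGGCG, present in 8.42% of windows, matched at 3 places before this CD83 start. The AP-1 motif TGANTCA (6.57% of windows) and the CRE motif TGACGTCA (1.65%) matched no member's window. The first listed starts of CD83 and CD86 and the windows of CD80, CD58, SLAMF1 and IL21R matched none of the 5 motifs. A match describes letters only and shows no binding.

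**Figure D1:**
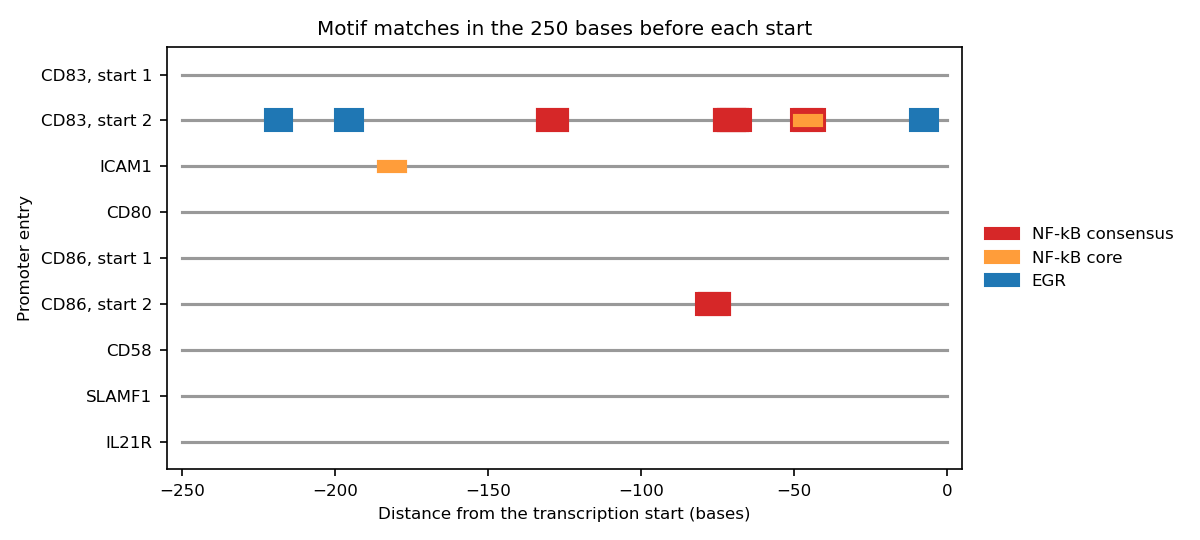
Motif matches on either strand in the 250 bases before each RefSeq start of the 7 members with an entry (horizontal axis, distance from the start in bases; 1 line per entry). NF-kB matches lie in the second CD83 start, ICAM1 and the second CD86 start, and EGR matches in the second CD83 start.

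The B7 ligands both rose in JEKO1. CD86 went from 111, 135 and 128 normalized counts with DMSO to 464, 491 and 487 with IB (1.94 ± 0.09, limma adjusted p = 1.35e-12). CD80 was nearly silent with DMSO, at 1, 3 and 2 reads, and gave 21, 22 and 19 reads with IB. CD80 passed the filter only through these IB libraries. From 6 and 62 reads in all, its ratio after scaling was 10.4, with an exact 95% interval of 4.51 to 29.4 that covers counting error only. Groups of either ligand did not overlap.

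The receptors that take T cell signals rose too. CD40 read 128, 162 and 119 with DMSO and 438, 423 and 379 with IB (log2 fold change 1.60 ± 0.11, limma adjusted p = 2.56e-10). IL21R was scarce with DMSO, at 22.4, 24.6 and 10.5 normalized counts, and reached 106, 78 and 73.2 with IB (2.17 ± 0.26, adjusted p = 1.22e-06). DMSO replicate C was the lowest IL21R library, and without it the rise was 1.81. Each IB library stood above each DMSO library for both receptors.

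Among the remaining members, CD69 rose from 33.6, 31.3 and 28.6 normalized counts to 123, 102 and 120 (1.85 ± 0.16, limma adjusted p = 1.55e-08). CD70, the ligand of CD27, was already abundant with DMSO and went from 351, 363 and 287 to 835, 757 and 853 (1.29 ± 0.08, adjusted p = 1.01e-10). CD58 had the smallest rise and few reads, 13 to 16 per library with DMSO and 26 to 29 with IB (0.89 ± 0.28, adjusted p = 0.0131). CD58 missed the threshold with DMSO replicate A left out (adjusted p = 0.0595), with IB replicate B left out (0.0559) and in DESeq2 on recovered reads (0.0507). SLAMF1 was not tested: its 6 JEKO1 libraries held 3 reads in all and its 12 MAVER libraries 6, never more than 2 in a library.

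**Figure D2:**
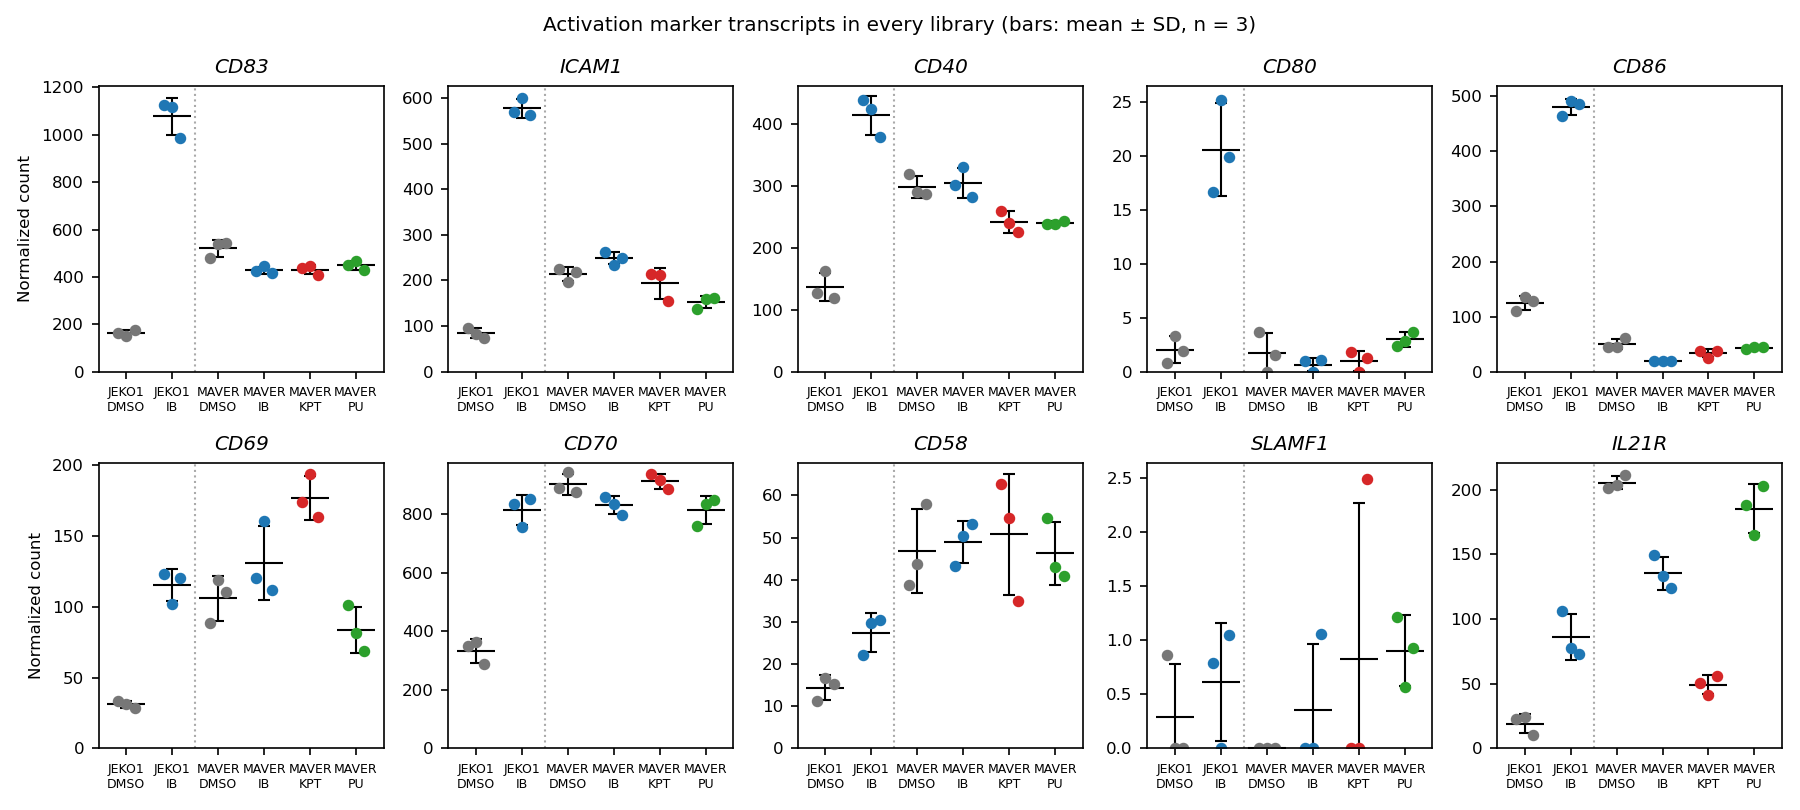
Normalized counts of the 10 members (vertical axis, linear from 0, a separate scale per gene) in each of the 6 groups; dots are libraries A, B and C from left to right, bars the mean ± SD (n = 3), and the dotted line parts the separately normalized JEKO1 and MAVER tables. For 8 members that average at least 10 in both groups, and for CD80, which passed only through its IB libraries, the JEKO1 IB dots lie above the JEKO1 DMSO dots, as they do for 25.4% of all genes tested. SLAMF1 stays at 0 to 2 reads, and IL21R is lowest of the MAVER groups with KPT.

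MAVER cells with IB gave a different picture, in which no member was called higher. Of 8 members tested 3 fell (CD83, CD86 and IL21R), where 10.1% of the 11099 genes tested rose and 9.65% fell. CD86 changed most, from 44.2, 45.7 and 61 normalized counts with DMSO to 20.2, 20.1 and 19.1 with IB (-1.29 ± 0.22, limma adjusted p = 1.47e-05). The IB libraries held 18 to 21 CD86 reads each and all lay below the DMSO libraries. The share of all genes whose MAVER groups do not overlap was not computed. IL21R fell from 202, 204 and 211 to 149, 133 and 124 (-0.60 ± 0.13, adjusted p = 0.000327). CD83 fell by a small margin, from 481, 538 and 543 to 424, 446 and 415 (-0.28 ± 0.07, adjusted p = 0.00262). These 3 calls held under every alternative in which the gene was tested, each left-out library of the compared groups included.

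The other 5 tested members did not pass the threshold with IB in MAVER, and their intervals (95%, not adjusted for the number of genes) bound the change. ICAM1 read 225, 196 and 220 with DMSO and 262, 235 and 250 with IB, a log2 fold change of 0.22 (interval -0.0018 to 0.44, limma adjusted p = 0.168). The ICAM1 IB libraries all lay above the DMSO libraries, while those of CD70 all lay below. Neither gene was called, and the share of all genes whose MAVER groups do not overlap was not computed. The interval was 0.0050 to 0.59 for CD69, -0.15 to 0.20 for CD40, -0.24 to -0.0062 for CD70 and -0.34 to 0.50 for CD58. CD80 and SLAMF1 were too scarce to test, with 0 to 5 CD80 reads in each MAVER library.

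The IB effect differed between the lines for all 8 members tested in both, with 8 effects higher in JEKO1, where 21.7% of the 10632 genes tested had a higher effect in JEKO1 and 19.6% a lower one. The difference (JEKO1 effect minus MAVER effect, log2) was, for example, 3.23 ± 0.20 for CD86 (SE, n = 3 per group, limma adjusted p = 6.74e-13). It was 3.00 ± 0.11 for CD83 (limma adjusted p = 8.12e-18) and 2.77 ± 0.29 for IL21R (1.98e-08). CD86, CD83 and IL21R were each called in opposite directions in the lines, like 1260 of the 1415 genes called in both (89%). ICAM1 differed by 2.54 ± 0.14, CD40 by 1.58 ± 0.14, CD69 by 1.55 ± 0.22 and CD70 by 1.41 ± 0.10. The order of the members rests on the JEKO1 labels: with these exchanged, the difference would be -0.65 for CD86, -2.44 for CD83, -1.57 for IL21R and -2.98 for ICAM1. For CD58 the difference was 0.81 ± 0.32 (adjusted p = 0.047). CD58 missed the threshold for 8 of the 12 libraries left out singly. Its adjusted p was 0.122 without JEKO1 DMSO replicate A, 0.148 without MAVER DMSO replicate C, and 0.0525 to 0.104 without JEKO1 IB replicate B or C, MAVER DMSO replicate B or MAVER IB replicate A, B or C.

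**Figure D3:**
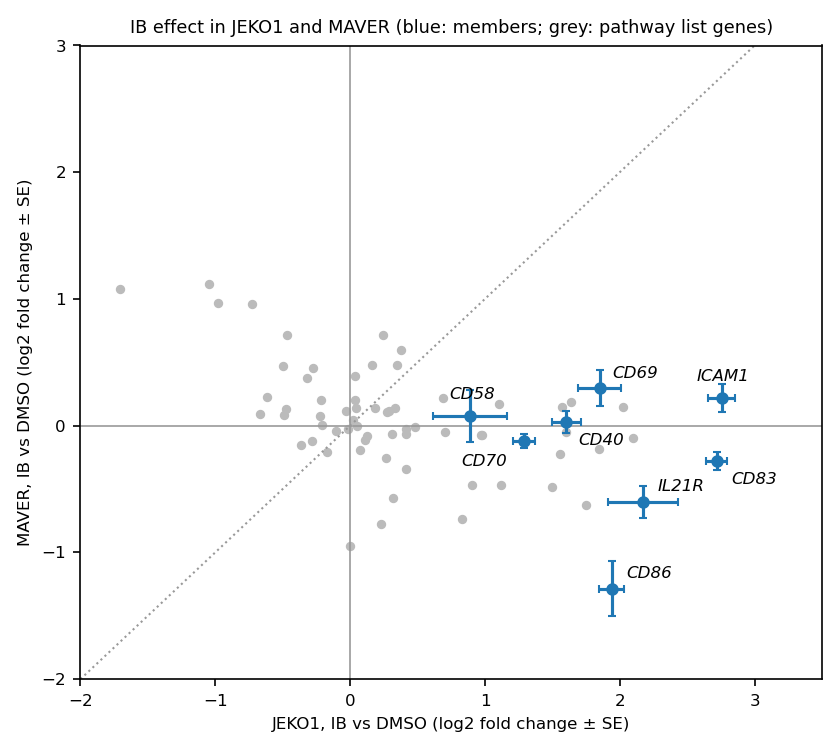
Log2 fold change ± SE of IB against DMSO in JEKO1 (horizontal) and MAVER (vertical) for the 8 members tested in both (blue, labelled) and for genes of the pathway lists (grey); the dotted line marks equal effects. With the JEKO1 labels as given, all 8 members lie right of and below that line; with them exchanged, all 8 would lie on its other side and CD86 (-0.65) nearest to it.

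Levels in the lines were also set side by side as RPM, reads scaled to the library total. This comparison across separately normalized tables was not tested, and it rests on the JEKO1 labels as given. With DMSO, 7 of these 8 members were lower in JEKO1, and the share of all genes lower there was not computed. CD83 stood at 16.2 ± 1.22 against 55.1 ± 3.74 RPM in MAVER (SD, n = 3), and IL21R at 1.90 ± 0.75 against 21.8 ± 0.52. CD86 was the exception, at 12.4 ± 1.22 against 5.33 ± 0.98. In JEKO1 with IB, CD83 reached 107 ± 8.01, ICAM1 57.4 ± 2.06 and CD40 41.1 ± 3.20 RPM, all above MAVER DMSO libraries (22.6 ± 1.57 for ICAM1 and 31.6 ± 1.83 for CD40). IL21R at 8.54 ± 1.81, CD58 at 2.73 ± 0.44 and CD70 at 81 ± 4.99 stayed below MAVER DMSO (4.95 ± 1.05 for CD58 and 95.6 ± 3.96 for CD70). CD69 stood at 11.5 ± 1.14, within the spread of MAVER DMSO at 11.2 ± 1.69. Were the JEKO1 labels exchanged, these IB levels would be the DMSO levels. CD83, ICAM1, CD40 and CD86 (47.8 ± 1.35 RPM) would then start above MAVER DMSO, and IL21R, CD58 and CD70 below it. The count of 7 members lower in JEKO1 would not hold.

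KPT in MAVER lowered IL21R and raised CD69. Of 8 members tested, 1 rose and 4 fell, where 27.3% of all genes tested rose and 28.5% fell, so a call in this comparison was common among all genes. IL21R went from 202, 204 and 211 normalized counts with DMSO to 50.2, 41.6 and 56.1 with KPT (-2.05 ± 0.13, limma adjusted p = 3.04e-17). KPT libraries were the shallowest, with 28 to 45 IL21R reads each, and replicates A and C were rich in RNA45S5. Without both of these, a setting chosen after seeing the data that leaves 1 KPT library, assumed to vary like the other groups, IL21R still fell (-2.28, adjusted p = 5.17e-14).

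CD69 rose with KPT, from 88.4, 119 and 110 to 174, 194 and 163 (0.74 ± 0.14, limma adjusted p = 3.12e-05). All KPT libraries lay above all DMSO libraries, and the share of all genes that do so was not computed. CD40 fell from 319, 291 and 286 to 260, 240 and 226 (-0.30 ± 0.09, adjusted p = 0.00305). CD83 fell to 439, 445 and 410 (-0.27 ± 0.07, adjusted p = 0.00118), a change of like size that missed the threshold without the RNA45S5-rich libraries (-0.22, adjusted p = 0.0629). CD86 fell to 37.7, 24.9 and 37.4 (-0.59 ± 0.22, adjusted p = 0.0208), but not without DMSO replicate C (-0.44, adjusted p = 0.134), without KPT replicate B (-0.40, 0.145) or with no filter on low values (0.0566). Without the RNA45S5-rich libraries the CD86 change was -0.97 (adjusted p = 0.0067). CD69 and CD40 stayed called without the RNA45S5-rich libraries (adjusted p = 0.00076 and 0.0316). ICAM1, CD70 and CD58 did not pass the threshold, with intervals of -0.38 to 0.07, -0.10 to 0.13 and -0.32 to 0.51.

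PU lowered members by small margins. Of 8 members tested 0 rose and 5 fell, where 27.6% of all genes tested rose and 27.5% fell, again a comparison in which calls were common. ICAM1 fell most, from 225, 196 and 220 normalized counts to 137, 160 and 162 (-0.48 ± 0.11, limma adjusted p = 0.000303), and CD40 fell to 238, 239 and 244 (-0.31 ± 0.09, adjusted p = 0.00254). In both cases every PU library lay below every DMSO library, and the share of all genes that do so was not computed. CD83 fell by 0.21 on the log2 scale (SE 0.07, adjusted p = 0.00906), and not without DMSO replicate C (adjusted p = 0.0534). CD70 fell by 0.15 (SE 0.06, adjusted p = 0.0252), a call lost without DMSO replicate B (0.13), without PU replicate A (0.188) and after rescaling to upper quartiles (0.131). CD69 fell by 0.34 (SE 0.14, adjusted p = 0.0429) with overlapping libraries, 101, 81.6 and 68.9 against 88.4, 119 and 110. The CD69 call was lost without DMSO replicate B (0.192) or C (0.12) or PU replicate B (0.0882) or C (0.26), and with 4 other settings. IL21R at 189, 165 and 203 did not pass the threshold (-0.15, 95% interval -0.41 to 0.10).

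**Figure D4:**
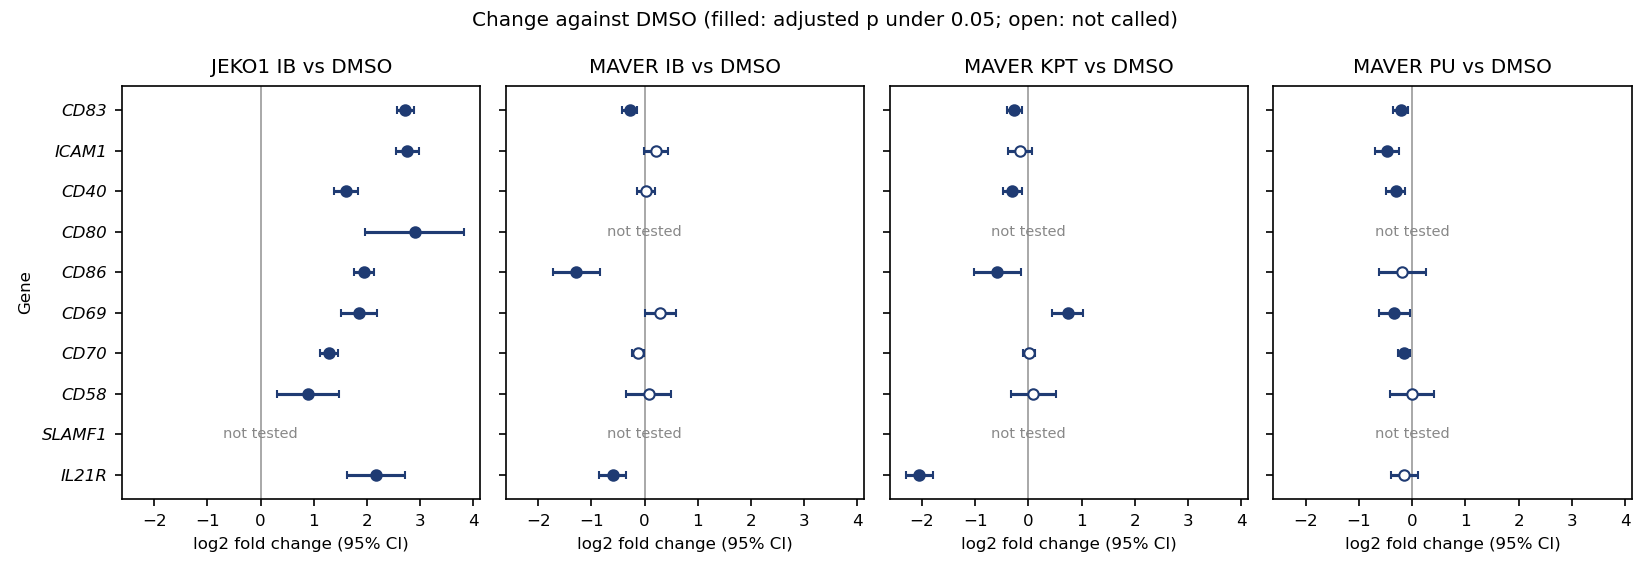
Log2 fold change against DMSO with its 95% interval (horizontal axis) for each member (vertical axis) in the 4 comparisons; filled points were called at an adjusted p under 0.05, open points were not. All intervals in JEKO1 lie above 0, but CD80 was tested there only because its IB libraries passed the filter. In MAVER the widest departures are IL21R with KPT and CD86 with IB.

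Drugs were also set against each other in MAVER, where all comparisons with DMSO share the same 3 control libraries. KPT against IB gave 3 members higher and 3 lower (27% and 28.2% of all genes tested). PU against IB gave 2 higher and 3 lower (27.5% and 27.6%), and PU against KPT 1 higher and 3 lower (28.3% and 28.6%). IL21R ordered the groups most sharply: DMSO 206 ± 4.89 and PU 185 ± 19.2 normalized counts were neighbours that did not differ by the test, IB stood below both at 136 ± 12.7, and KPT below IB at 49.3 ± 7.29 (SD, n = 3). PU stood above IB (PU minus IB 0.45 ± 0.13, limma adjusted p = 0.00251) and KPT below IB (KPT minus IB -1.45 ± 0.13, adjusted p = 8.83e-13).

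CD86 was ordered differently, lowest with IB at 19.8 ± 0.61 normalized counts, then KPT at 33.3 ± 7.26, PU at 43.6 ± 1.95 and DMSO at 50.3 ± 9.27. KPT stood above IB (0.70 ± 0.22, limma adjusted p = 0.00654), though not without the 2 RNA45S5-rich libraries (0.32, adjusted p = 0.397), and PU stood above IB (1.10 ± 0.22, adjusted p = 4.57e-05). PU did not differ from KPT or DMSO by the test (intervals -0.04 to 0.84 and -0.63 to 0.25). CD69 was highest with KPT at 177 ± 15.4, followed by IB at 131 ± 26.3, DMSO at 106 ± 15.8 and PU at 83.8 ± 16.1, IB and DMSO being neighbours that did not differ by the test. KPT against PU was the widest CD69 contrast (PU minus KPT -1.08 ± 0.14, adjusted p = 3.06e-08). CD69 with KPT also passed against IB (0.45 ± 0.14, adjusted p = 0.00828, but 0.0699 without IB replicate C).

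ICAM1 was highest with IB at 249 ± 13.7 normalized counts and lowest with PU at 153 ± 13.7, with DMSO at 214 ± 15.2 and KPT at 194 ± 33.8 between. PU was below IB (-0.70 ± 0.11, limma adjusted p = 9.24e-07) and below KPT (-0.32 ± 0.11, adjusted p = 0.0115), the latter not without KPT replicate A (0.0837) or B (0.0823) or PU replicate A (0.0806). KPT was below IB (-0.37 ± 0.11, adjusted p = 0.00379), but not without KPT replicate C (0.0892) or without both RNA45S5-rich libraries (0.193). CD40 fell into 2 pairs, IB at 305 ± 24.4 and DMSO at 298 ± 17.7 above KPT at 242 ± 17.3 and PU at 240 ± 2.97. For CD83 the 3 drug groups, 428 ± 15.8, 432 ± 19 and 449 ± 18.5, did not differ from each other by the test and lay below DMSO at 521 ± 34.7. CD70 with KPT stood above IB (0.14 ± 0.06, adjusted p = 0.0383), a call lost without IB replicate B or C or KPT replicate A or B, after rescaling to equal totals (0.0891), without the variance trend (0.06), in edgeR (0.0577) and in DESeq2 (0.0754). CD70 with PU stood below KPT (-0.16 ± 0.06, adjusted p = 0.0128), but not without KPT replicate A (0.0506), without PU replicate A (0.117) or after rescaling to upper quartiles (0.0699). CD58 passed no comparison in MAVER.

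Other genes around these members gave mixed counts in JEKO1, to be read against the 21.9% of all genes tested that rose and the 20.2% that fell. Of 21 genes of CD40 and NF-kB signalling, 13 rose and 2 fell with IB in JEKO1 (median 0.41), among them NFKB2, a subunit precursor of the noncanonical pathway, from 218 ± 25.4 to 933 ± 47.3 normalized counts, and the inhibitor gene NFKBIE (1.85 ± 0.06). Of 17 tested genes of the IL21R partners and JAK-STAT list 8 rose and 1 fell (median 0.24). IL2RG, which encodes the common gamma chain that pairs with IL21R, rose from 465 ± 12 to 915 ± 36, and IL10RA rose by 0.91 ± 0.08. Of 9 tested costimulation ligands and receptors 2 rose and 2 fell. CD27, the receptor of CD70, fell from 1740 ± 23.2 to 536 ± 59.6, while TNFSF9, the ligand of the receptor 4-1BB, rose by 1.75 ± 0.11. SLAM family and adhesion partners split 3 up and 3 down of 11, with CD48 rising by 1.49 ± 0.15 and the integrin ITGB1 falling to 1363 ± 101 from 2092 ± 70.5. Other B cell activation markers split 4 up and 6 down of 11. BCL2A1, an anti-apoptotic NF-kB target, averaged 1.85 ± 1.91 with DMSO and 41.5 ± 11.1 with IB, passing the filter through the IB libraries, and the transferrin receptor TFRC rose by 0.26 ± 0.04.

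In MAVER, CD27, TNFSF9 and CD48 moved opposite to JEKO1 with IB, like 1260 of the 1415 genes called in both lines (89%). With IB in MAVER, 10.1% of all genes tested rose and 9.65% fell. CD27 rose from 213 ± 2.99 to 451 ± 27.7 normalized counts and CD38, an ectoenzyme, from 570 ± 39.6 to 1105 ± 38.2, while CD48 (-0.49 ± 0.07), CD84 (-0.74 ± 0.11) and TNFSF9 (-0.63 ± 0.10) fell (log2 fold change ± SE). IB called 3 up and 2 down of 20 signalling genes (BIRC3 0.60 ± 0.05, REL -0.34 ± 0.06). It called 5 up and 2 down of 16 JAK-STAT genes, JAK1 and IL4R among the rises, and 3 up and 1 down of 7 costimulation genes. SLAM and adhesion genes gave 3 up and 4 down of 12, and other markers 5 up and 2 down of 11, CD9 rising by 1.12 ± 0.10.

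With KPT 27.3% of all genes tested rose and 28.5% fell, and with PU 27.6% and 27.5%. Several list counts lie near those shares, such as 6 up and 4 down of 16 with KPT. KPT called 2 up and 11 down of 20 CD40 and NF-kB signalling genes, with NFKB2 at 1157 ± 22 against 1941 ± 60.4 and the kinase gene CHUK at 496 ± 31 against 793 ± 33.7 normalized counts. PU called 4 up and 8 down of 20, with NFKB2 at 1124 ± 69.8 and BIRC3 at 1058 ± 83.6 against 1849 ± 51.9. In the other lists, KPT gave 4 up and 1 down of 7 costimulation genes (CD27 0.69 ± 0.08 and the BAFF receptor gene TNFRSF13C 0.98 ± 0.09) and 6 up and 4 down of 16 JAK-STAT genes (STAT3 0.69 ± 0.07). It gave 6 up and 2 down of 12 SLAM and adhesion genes (LY9 1.08 ± 0.11) and 7 up and 2 down of 11 other markers, GPR183 and CD38 among the rises. PU raised 5 of 7 costimulation genes and lowered 0 (CD27 1.12 ± 0.08, TNFRSF14 0.80 ± 0.09), and raised 10 of 16 JAK-STAT genes and lowered 1, with JAK3, the kinase that binds the common gamma chain, at 772 ± 68.6 against 243 ± 24.5. It raised 7 of 12 SLAM and adhesion genes and lowered 0 (ITGB1 0.39 ± 0.05) and gave 7 up and 2 down of 11 other markers (CCR7 0.79 ± 0.05, TFRC -1.43 ± 0.05). Of the drug targets, XPO1 stood at 11244 ± 346 with KPT against 5232 ± 99.2 with DMSO. BTK with IB was higher in JEKO1, at 2816 ± 82.7 against 2281 ± 26.7 with DMSO. In MAVER, BTK was lower with IB, at 2578 ± 94.4 against 2839 ± 63.1.

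**Figure D5:**
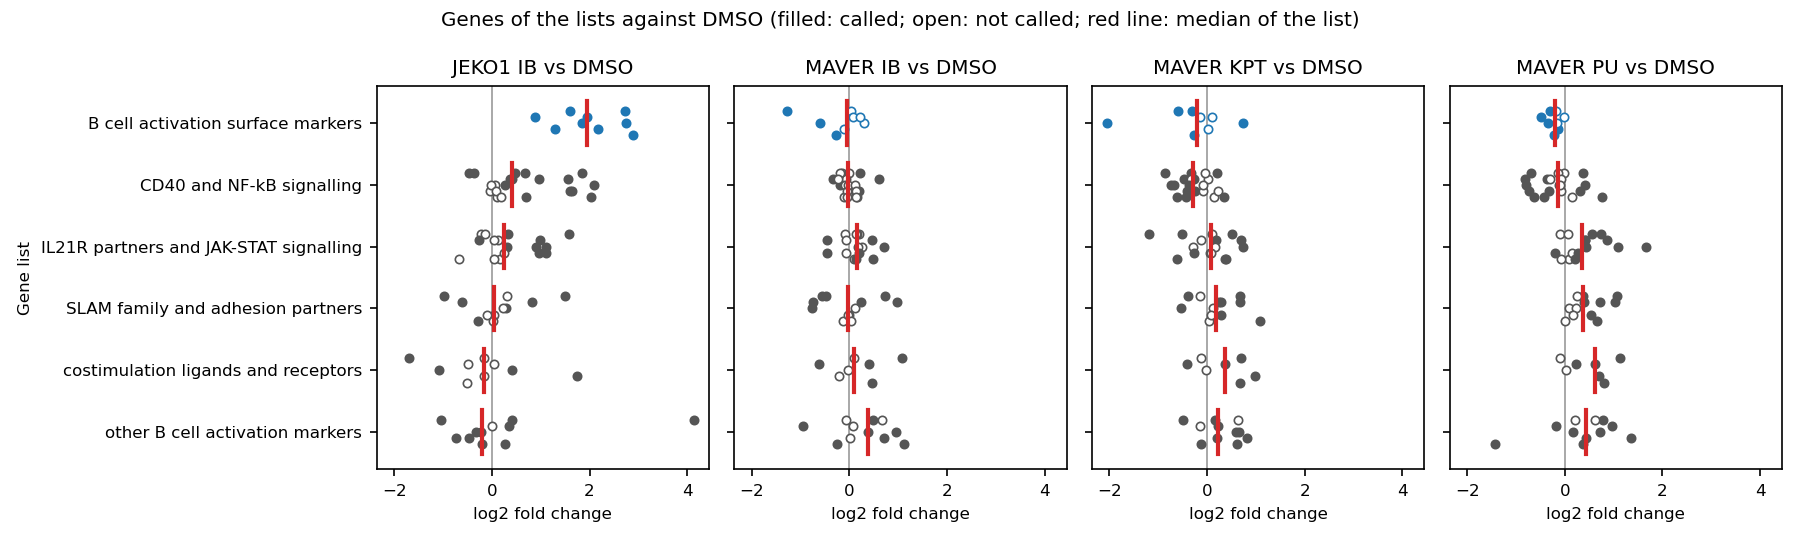
Log2 fold change against DMSO (horizontal axis) of each tested gene of the members (blue) and of the 5 pathway lists (grey) in the 4 comparisons; filled points were called, and the red line is the median of the list. The members' median in JEKO1 is 1.94 over the 9 tested, CD80 included, and 1.90 over the 8 also tested in MAVER, where it lies between -0.21 and -0.05.

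Likeness of pattern was measured as the root mean square difference of the 4 log2 fold changes against DMSO (JEKO1 IB; MAVER IB, KPT and PU), among up to 9002 genes averaging 50 or more in both tables. The 3 MAVER values share their control libraries. CD83 lay nearest to PLEK at 0.16 and to NFKBID, an atypical IkB gene, at 0.24, and ICAM1 to PLEK at 0.24. CD83 and ICAM1 were each among the other's 3 nearest genes, at 0.29, and NFKBID was the third for ICAM1 at 0.37. CD86 lay nearest to the toll-like receptor gene TLR10 at 0.13, the B cell surface gene CD72 at 0.14 and the nuclear receptor gene NR4A3 at 0.26. IL21R had less close neighbours, the amino acid transporter gene SLC1A4 at 0.36, the adaptor gene SH2B3 at 0.51 and BCL3, another atypical IkB gene, at 0.53.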

How the data were processed

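Per the labels' protocols, 18 stranded TruSeq libraries were read from 1 end over 50 bp, and STAR, Cufflinks and DESeq2 were used. The build hg19 is named in the submitters' processing notes. Tool versions, the annotation and how reads were counted or assigned to strand: not given in the sources used here, so reads of overlapping antisense genes cannot be told apart. The deposited values are a signal: counts per gene divided by 1 factor per library by the authors, in 1 table per line. All values (100%) were whole multiples of the smallest positive value of their library within 0.01 read, so whole reads were recovered.

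Differences were tested across all genes with limma 3.58.1 in R 4.3.3 (trend, pseudocount 1, mean of at least 10), each line in its own table and the 4 MAVER groups together; the difference between lines used the 12 IB and DMSO libraries. The pipeline was tested on simulated data. Fold changes on the log2(value + 1) scale understate changes of low genes. Alternatives were pseudocounts, filters, rescaling, no trend, a replicate block, compared groups alone, left-out libraries, and edgeR 4.0.16 and DESeq2 1.42.0 on recovered reads. Members and lists were chosen with earlier results of these data known. Named genes besides the members are up to 2 called genes with the smallest p per list and comparison, the 3 nearest in pattern to each of the 4 members with the largest effects, BTK and XPO1. The lowest correlation within a group, across genes, was 0.991, and no pair of replicates agreed within sampling noise (chi-square per degree of freedom at least 1.40). Both tables hold 28 date-like gene names, which were left as they are. Some genes that this rule names are not reported here.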

Additional observations from a re-analysis of the deposited data

Results flagged for a closer look

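The IB effect differed between JEKO1 and MAVER (JEKO1 minus MAVER, log2 fold change ± SE, limma with adjustment over all genes) for each of the 8 members tested in both lines. The differences were 3.00 ± 0.11 for CD83, 2.54 ± 0.14 for ICAM1, 1.58 ± 0.14 for CD40 and 3.23 ± 0.20 for CD86. They were 1.55 ± 0.22 for CD69, 1.41 ± 0.10 for CD70, 0.81 ± 0.32 for CD58 and 2.77 ± 0.29 for IL21R. Of the 1415 genes called with IB in both lines, 1260 (89%) moved opposite ways. Among the members, CD83, CD86 and IL21R rose in JEKO1 and fell in MAVER. With the JEKO1 labels exchanged these 3 would have fallen in both lines, and the 2 readings cannot be told apart.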

How the results depend on the processing

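Of 65 member results, 51 kept their side of the threshold under all alternatives, as did 1091 of 1142 alternative values. Of the alternative values 28, in 10 results, had the opposite sign, and 0 of these were called in either fit. Of the members called, the count with PU against DMSO was 3 after rescaling to equal upper quartiles in place of 5, and 3 to 5 with single libraries left out (3 without DMSO replicate B or C). With PU against KPT it was 2 to 4 (2 without KPT replicate A or PU replicate A). Without the 2 RNA45S5-rich KPT libraries, chosen after seeing the data, KPT against IB called 3 members in place of 6, while CD86 became called for PU against KPT (0.78, adjusted p = 0.0274). The JEKO1 count was 7 to 9 with single libraries left out, CD80 dropping under the filter without IB replicate B or C.

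The replicate letters showed little sign of pairing: deviations of same-lettered libraries correlated at -0.06 to 0.12 over the 4 comparisons with DMSO. A replicate block left the members called at 9 in JEKO1 and at 3, 5 and 5 with IB, KPT and PU in MAVER. Over all genes in JEKO1, the block raised the calls from 2538 up and 2341 down to 2819 and 2688. In MAVER the block lowered them slightly, with IB from 1126 and 1071 to 1100 and 1055. On recovered reads edgeR called 2565 genes up and 2358 down in JEKO1 with IB. In MAVER it called 1213 and 1134 with IB, 3021 and 3150 with KPT and 3300 and 3125 with PU. As many members were called by edgeR as by limma in these 4 comparisons. DESeq2 called fewer genes in JEKO1 with IB, 2191 up and 1885 down, and 8 members in place of 9. Without the trend, limma called 2091 up and 1863 down there. Both of these settings called 4 members with PU in MAVER in place of 5. Low levels, under the filter, kept SLAMF1 out of all main tests and CD80 out of those that use MAVER.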
